A study of Mus musculus with 8 samples.

Results

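Dppa and oocyte maternal complex genes are 9 mouse genes expressed in oocytes, early embryos or embryonic stem (ES) cells. Dppa2, Dppa3, Dppa4 and Dppa5a are of the developmental pluripotency-associated group. Khdc3, Ooep, Nlrp5, Tle6 and Padi6 are of the subcortical maternal complex. Matching was by gene symbol, with older synonyms accepted, and 8 of the 9 carried a probe, 1 each. These 8 were all above background on 8 of 8 arrays and passed the filter, and they are 8 of 25150 features tested. Dppa2 had no probe under its symbol or synonyms and was not analysed here. The set was chosen by measured values, since Dppa3 and Khdc3 lay in opposite directions between Taf5-kd and control-kd lines. That contrast is therefore given for these genes as a description, without a p-value.

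The samples were 4 clonal lines derived from IB10 E14 mouse ES cells, 2 expressing a short hairpin RNA against Taf5 (Taf5-kd line 1 and line 2) and 2 a control hairpin (control-kd line 1 and line 2). The Taf5 protein is part of TFIID, a multi-subunit complex that recognises core promoters for RNA polymerase II. All 4 lines had been transduced with pLKO-puro lentivirus, selected with puromycin, picked as single colonies, and grown on gelatin in medium with serum and LIF. Each line was grown in duplicate and hybridised on 2 dual-colour arrays against 1 common pool of parental ES cell RNA, array 1 with the line in Cy3 and array 2 with it in Cy5. Each line is 1 clone, so a difference between groups rests on 2 clones per group.

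The Dppa3 protein, also called Stella or PGC7, is a maternal factor that shields the genome of the early embryo from loss of DNA methylation and can also hold the methylation cofactor UHRF1 away from chromatin. Dppa2 and Dppa4 are paired SAP-domain proteins that act on chromatin at developmental and 2-cell-stage genes. The subcortical maternal complex is an assembly of maternally supplied proteins below the surface of the mouse oocyte and cleavage embryo, which the embryo needs to pass its first divisions. Khdc3 (FILIA), Ooep (FLOPED) and Dppa5a (ESG1) belong to a family of KH-domain proteins, a fold that binds RNA in many proteins. Nlrp5 (MATER), Tle6 and Padi6 bring an NLR protein, a member of the Groucho family and a peptidylarginine deiminase to the complex.

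As facts of the whole series, the median signal of the line's channel was 123 to 186 intensity units per array. Taf5 itself lay 2.65-fold lower in Taf5-kd than in control-kd lines (log2 difference -1.40 ± 0.13, SE; adjusted p = 0.0267), at -1.08 and -1.11 in Taf5-kd lines 1 and 2 against 0.48 and 0.14 in control-kd lines 1 and 2. The ES cell genes Pou5f1, Sox2 and Nanog stood far above background on 8 of 8 arrays, the lowest signal among them being 5193 units. With 1 mean per line, limma called 1950 of 25150 features different between Taf5-kd and control-kd at an adjusted p under 0.05, which is 7.75% (4.5% higher and 3.25% lower). This count fell to 106 with median centring in place of loess and to between 0 and 110 when 1 line was left out, where limma had 4974 to 6017 features at an unadjusted p under 0.05. All log2 values below are ratios of a line to the parental pool with the dye effect removed, or differences of such ratios.

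Khdc3 and Ooep are the members of the maternal complex that differed most between the groups, and Padi6 is one that differed little. Because TFIID works at core promoters, the 250 bases upstream of the RefSeq start of these 3 genes (assembly GRCm38.p6) are shown here. Capitals mark matches on either strand to 3 promoter motifs, the TATA box (TATAAA), the CCAAT box (CCAAT) and the GC box (GGGCGG). The stretches are chr9:73102148-73102397 on the plus strand for Khdc3, chr9:78378589-78378838 on the minus strand for Ooep and chr4:140742644-140742893 on the minus strand for Padi6.
Khdc3: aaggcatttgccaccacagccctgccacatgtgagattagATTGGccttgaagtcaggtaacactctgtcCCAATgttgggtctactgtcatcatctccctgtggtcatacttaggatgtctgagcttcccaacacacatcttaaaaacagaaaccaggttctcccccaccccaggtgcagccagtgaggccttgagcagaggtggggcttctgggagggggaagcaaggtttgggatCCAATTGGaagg
Ooep: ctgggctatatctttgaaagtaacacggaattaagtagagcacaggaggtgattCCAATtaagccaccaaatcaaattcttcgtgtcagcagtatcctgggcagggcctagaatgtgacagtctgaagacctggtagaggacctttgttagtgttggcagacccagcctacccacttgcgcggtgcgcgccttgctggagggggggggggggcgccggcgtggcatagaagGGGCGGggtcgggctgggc
Padi6: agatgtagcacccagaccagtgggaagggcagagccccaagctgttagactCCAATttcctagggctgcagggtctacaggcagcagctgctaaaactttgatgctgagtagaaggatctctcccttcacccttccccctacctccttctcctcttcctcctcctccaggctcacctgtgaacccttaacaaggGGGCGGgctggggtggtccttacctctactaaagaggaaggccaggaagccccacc
The Khdc3 stretch held 4 CCAAT matches, of which 2 overlap on opposite strands in the palindrome next to its end, and no match to the TATA or GC box. The Ooep stretch held 1 CCAAT box and 1 GC box, and so did that of Padi6. Among 32851 upstream stretches of the same length, 33.8% held a CCAAT box, 32.7% a GC box and 12.4% this TATA sequence. A match is a string of letters and not a bound site. Of the 9 genes, 5 had an entry in the promoter table, with 7 stretches in all. Of the starts listed for Nlrp5, 1 carried 2 matches to the TATA sequence and the other none, and the octamer ATGCAAAT, present in 1.6% of all stretches, had no match in any of the 7.

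Dppa3 was the member with the widest range. Its log2 ratio was 0.11 and 0.07 on the arrays of Taf5-kd line 1 and -0.58 and -0.81 on those of Taf5-kd line 2, against -2.82 and -2.71 in control-kd line 1 and -4.19 and -4.01 in control-kd line 2. The groups did not overlap, and the Taf5-kd lines were the ones near the parental level. Relative to the parental pool Dppa3 stood at 1.06-fold in Taf5-kd line 1 and 1.62-fold lower in Taf5-kd line 2, while it was 6.80-fold lower in control-kd line 1 and 17.2-fold lower in control-kd line 2. The spot signals show the same order before any correction. In the line's channel they were 4423, 5956, 2114 and 3851 units on the Taf5-kd arrays and 437, 660, 169 and 280 units on the control-kd arrays, where the local background was 34 to 37 units. The parental channel on the same spots stayed between 2477 and 5100 units. The difference between Taf5-kd and control-kd was 3.13 ± 0.56 (SE, 2 lines per group), or 8.76-fold, and ran from 2.07 to 4.19 when each Taf5-kd line was set against each control-kd line. In the authors' deposited table the same difference was 3.22, with 2.16 to 4.27 over the line pairings. RefSeq lists a Dppa3 pseudogene, and binding of its RNA to the single probe was not tested.

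Khdc3 ran the other way. Its log2 ratio was -2.05 and -1.99 in Taf5-kd line 1 and -1.40 and -1.40 in Taf5-kd line 2, against 1.56 and 1.47 in control-kd line 1 and 0.02 and 0.05 in control-kd line 2. Again the groups did not overlap, but here the Taf5-kd lines left the parental level, and so did control-kd line 1, in the opposite direction. Control-kd line 2 was level with the parental pool at 1.02-fold, whereas control-kd line 1 was 2.86-fold above it. The Taf5-kd lines were 4.06-fold and 2.64-fold below it. The signals of the line's channel were 433, 525, 555 and 1019 units on Taf5-kd arrays, against 4166, 6388, 1506 and 2180 units on control-kd arrays, with 1198 to 2210 units in the parental channel. The group difference was -2.48 ± 0.58 (SE), a 5.59-fold lower level in Taf5-kd lines. Its size depended on the control clone, from 1.43 to 3.53 log2 units over the 4 pairings. The authors' deposited table gave -2.59 for Khdc3, with line pairings from -3.72 to -1.47.

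**Figure D1:**
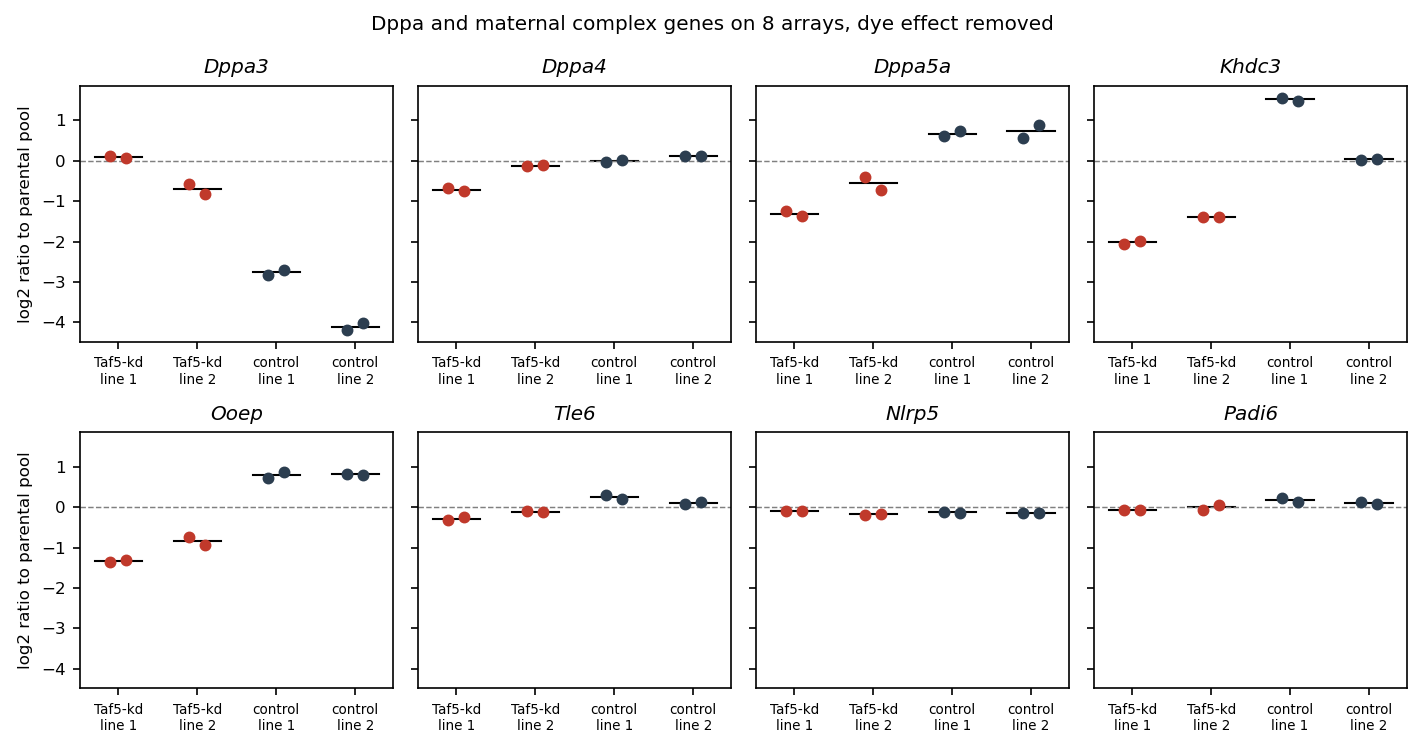
Log2 ratio to the parental pool (y axis, dye effect removed) of the 8 measured genes in each line (x axis, Taf5-kd lines in red, control-kd lines in dark blue); points are arrays, bars are line means, and the dashed line is the parental level. Dppa3 lies near the parental level in Taf5-kd lines and at -2.77 and -4.10 in the control-kd lines, while Khdc3, Ooep and Dppa5a lie below it in Taf5-kd lines.

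Ooep and Dppa5a, which lie next to each other on chromosome 9, had nearly the same profile. The Ooep log2 ratio was -1.36 and -1.30 in Taf5-kd line 1 and -0.75 and -0.93 in Taf5-kd line 2, against 0.71 and 0.86 in control-kd line 1 and 0.82 and 0.80 in control-kd line 2. Dppa5a stood at -1.24 and -1.38 in Taf5-kd line 1 and -0.40 and -0.73 in Taf5-kd line 2, against 0.60 and 0.74 in control-kd line 1 and 0.57 and 0.89 in control-kd line 2. For each gene the groups were apart, the control clones were alike, and the Taf5-kd line 1 arrays were the lowest. The group difference was -1.88 ± 0.18 (SE; 3.69-fold lower in Taf5-kd) for Ooep and -1.64 ± 0.27 (3.11-fold lower) for Dppa5a. The authors' deposited table gave -1.98 for Ooep and -1.45 for Dppa5a. The Dppa5a spot was close to the scanner limit of 65535 units. Its Cy5 signals reached 64691 units, so ratios of this gene can be compressed. Its log2 ratio also differed by dye, at -2.01 with Cy3 and -0.61 with Cy5 in Taf5-kd line 1 before the dye effect was removed. RefSeq lists pseudogenes of Dppa5, whose contribution to the probe was not tested.

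**Figure D2:**
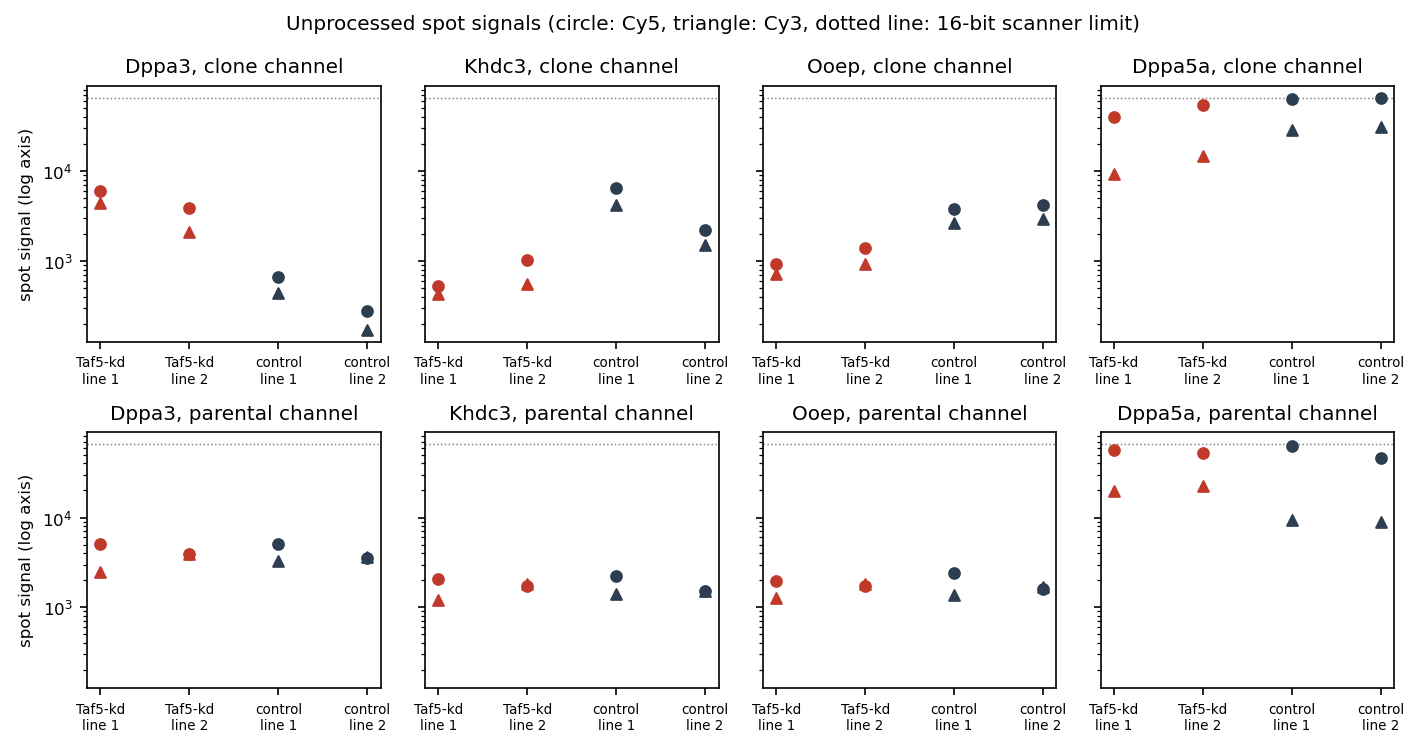
Unprocessed spot signals (y axis, intensity units on a log scale) of Dppa3, Khdc3, Ooep and Dppa5a in the channel of the line (top row) and of the parental pool (bottom row), by line (x axis, Taf5-kd in red, control-kd in dark blue); circles are Cy5, triangles Cy3. Dppa3 drops to 169 units in control-kd line 2 while its parental signal stays above 2477 units, and Dppa5a approaches the scanner limit in Cy5.

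Dppa4 and the remaining members of the complex differed less. Dppa4 was at -0.68 and -0.75 in Taf5-kd line 1 and -0.14 and -0.12 in Taf5-kd line 2, against -0.04 and 0.01 in control-kd line 1 and 0.13 and 0.12 in control-kd line 2. The 2 arrays of Taf5-kd line 1 were set apart from the rest, and those of Taf5-kd line 2 lay just below the control-kd arrays. The group difference of Dppa4 was -0.48 ± 0.22 (SE). Tle6 had a difference of -0.37 ± 0.09, with -0.32 to -0.10 on Taf5-kd arrays and 0.07 to 0.29 on control-kd arrays. Padi6 had one of -0.18 ± 0.05, with -0.08 to 0.06 on Taf5-kd arrays and 0.09 to 0.23 on control-kd arrays. Neither gene's arrays overlapped between the groups, and the differences were 1.29-fold for Tle6 and 1.13-fold for Padi6, each lower in Taf5-kd. Nlrp5 was flat at -0.18 to -0.09 in Taf5-kd and -0.15 to -0.11 in control-kd, and its groups overlapped. Its signal, 92 to 158 units in the line's channel, was also the dimmest of the 8. These differences chose the set and are given as a description. The share of all features whose groups did not overlap was not computed, so separation of the groups is not read as a result.

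Clone was set against clone within each group, a comparison that the choice of the set did not use. It asks whether 2 lines with the same hairpin carried these genes at the same level. Between the Taf5-kd clones 5 of the 8 members differed at an adjusted p under 0.05 in limma, 1 higher and 4 lower in line 1, where 13.6% of all features differed (9.49% higher and 4.06% lower). Dppa3 was 0.79 ± 0.09 (SE) higher in Taf5-kd line 1 than in line 2 (limma adjusted p = 7.82e-04). Khdc3 was lower in line 1 by a difference of -0.62 ± 0.05 (limma adjusted p = 1.65e-04). The Taf5-kd clone with more Dppa3 was thus the clone with less Khdc3. Dppa4 differed by -0.59 ± 0.05 (limma adjusted p = 1.49e-04), Dppa5a by -0.75 ± 0.13 (limma adjusted p = 0.00648) and Ooep by -0.49 ± 0.07 (limma adjusted p = 0.00326). Each of the 4 lower genes was the lower one on both arrays of line 1. The Taf5 transcript itself was at -1.08 in Taf5-kd line 1 and -1.11 in line 2.

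Between the control-kd clones 2 of 8 members differed, both higher in line 1, where 13.4% of all features differed and 6.66% were higher. Dppa3 was 1.34 ± 0.09 (SE) higher in control-kd line 1 than in line 2 (limma adjusted p = 4.91e-05), and Khdc3 was 1.48 ± 0.05 higher (limma adjusted p = 2.90e-06). In these clones, then, Dppa3 and Khdc3 were high in the same line. Ooep and Dppa5a gave no call, with differences of -0.02 (95% interval -0.19 to 0.15) for Ooep and -0.06 (-0.36 to 0.24) for Dppa5a. Tle6, Nlrp5 and Padi6 gave no call in either pair of clones. The error in these tests is that between 2 cultures of a clone, which also differ in dye. Under median centring the 5 calls between Taf5-kd clones were lost, with Dppa3 at 0.83 (limma adjusted p = 0.144) and Khdc3 at -0.59 (limma adjusted p = 0.518), and without the replicate block Dppa5a (limma adjusted p = 0.855) and Ooep (limma adjusted p = 0.246) lost theirs. Dppa5a also lost its call without Taf5-kd line 1 array 2 (limma adjusted p = 0.0649) or Taf5-kd line 2 array 1 (limma adjusted p = 0.0579).

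**Figure D3:**
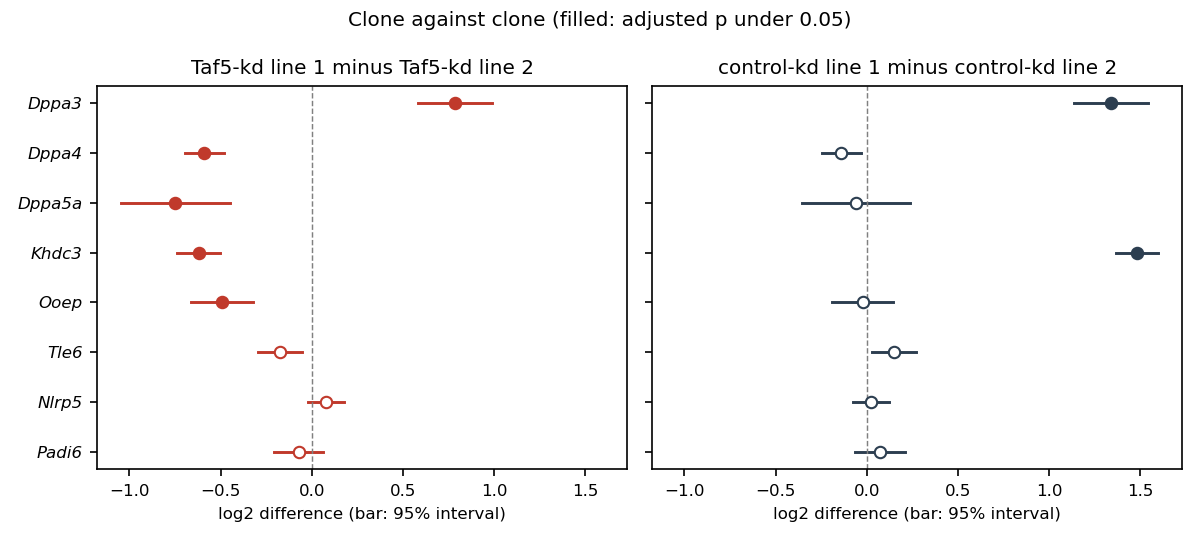
Log2 difference of line 1 minus line 2 (x axis, with 95% interval) for the 8 genes within the Taf5-kd pair (left) and the control-kd pair (right); filled points have an adjusted p under 0.05. Dppa3 is higher in line 1 of each pair, at 0.79 and 1.34, while Khdc3 lies at -0.62 between Taf5-kd clones and at 1.48 between control-kd clones.

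The mean of the 4 lines was also set against the parental pool. This averages the 2 groups and does not show that each line moved. Of the 8 members 2 were called, both lower, where 16.5% of all features were lower. Dppa3 averaged -1.87 ± 0.28 (SE), a 3.65-fold lower level than in the parental pool (limma adjusted p = 0.0197). The SE of this test comes from lines within each group and leaves out the gap between the groups. Dppa3 stood at 0.09 and -0.70 in Taf5-kd lines 1 and 2, against -2.77 and -4.10 in control-kd lines 1 and 2. Taf5-kd line 1 was thus not lower. The call was lost without Taf5-kd line 1 (-2.06, limma adjusted p = 0.0574) and without Taf5-kd line 2 (-1.67, limma adjusted p = 0.0806). Without Taf5-kd line 2, the averages of Dppa4 (-0.33), Dppa5a (-0.30) and Ooep (-0.27) lay below the parental level. There the Taf5-kd group is line 1 alone. The control-kd lines were above the parental level for Dppa5a (0.67 and 0.73) and Ooep (0.79 and 0.81). Nlrp5 averaged -0.14 ± 0.02 (limma adjusted p = 0.0268), a 1.10-fold lower level, and lost its call when any line was left out or under median centring. The Nlrp5 ratio is also that of a dim probe, at 92 to 158 units where the array medians were 123 to 186. Khdc3 averaged -0.47 with a 95% interval from -1.28 to 0.35, and its lines lay on either side of the parental level. The parental RNA was 1 pool, so its own spread is not part of this test.

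Among the 4 members whose line means spanned at least 1 log2 unit, the profiles over the 8 arrays were compared as a description. Dppa5a and Ooep correlated at r = 0.984, Khdc3 and Ooep at 0.918, and Khdc3 and Dppa5a at 0.895. Dppa3 correlated negatively with each of them, at -0.956 with Ooep, -0.938 with Dppa5a and -0.775 with Khdc3. The 8 points are 2 arrays of each of 4 lines and share their parental pool, so each value mostly restates the order of 4 clones. Among 958 named genes with as wide a range, the profiles most like Dppa3 were those of Ube2e1, a ubiquitin-conjugating enzyme (r = 0.998), Cpe, carboxypeptidase E (0.998), and Fam102b (0.997). Their line means spanned less than those of Dppa3, for Cpe 0.36 and 0.03 in Taf5-kd lines 1 and 2 and -1.07 and -1.67 in control-kd lines 1 and 2. Most like Khdc3 were Pnrc2, a nuclear receptor coactivator (0.996), Ino80, a chromatin remodelling ATPase (0.995), and Itpka, an inositol trisphosphate kinase (0.994). Most like Ooep were Olfr1346, an olfactory receptor gene (0.999), the glutathione transferase gene Gsta3 (0.998) and Acp6, an acid phosphatase (0.998). Most like Dppa5a were Cox7c, a respiratory chain subunit (0.997), Nr0b1, the nuclear receptor Dax1 of the ES cell network (0.991), and Tiparp, an ADP-ribosyltransferase (0.990). Nr0b1 lay at -0.84 and 0.05 in Taf5-kd lines 1 and 2 against 1.32 and 1.52 in control-kd lines 1 and 2, so it too was lowest in Taf5-kd line 1.

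The genes beside the members were examined, 4 protein-coding genes on each side in the RefSeq gene order. Of 56 such neighbours 41 were measured, and 0 were higher and 4 lower in Taf5-kd than in control-kd lines at an adjusted p under 0.05 in limma, against 4.5% and 3.25% of all features; their median difference was -0.09. Around Dppa3, on chromosome 6, the 7 measured neighbours ran from -0.67 to -0.04, while Dppa3 itself was at 3.13. None of the 7 was called. They include the pluripotency factor gene Nanog at -0.67 and the growth factor gene Gdf3 at -0.47. Dppa3 was thus the measured gene of its neighbourhood with a positive value.

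Beside Dppa4 and Dppa2 on chromosome 16, Morc1, a germline ATPase gene needed for transposon silencing, was lower by a difference of -1.12 ± 0.13 (SE; limma adjusted p = 0.0330). Its line means were -0.15 and 0.04 in Taf5-kd lines 1 and 2, against 0.92 and 1.20 in control-kd lines 1 and 2. Morc1 therefore sat near the parental level in Taf5-kd lines and above it in the controls. Khdc3 also lies on chromosome 9, apart from Ooep and Dppa5a. Mto1, a mitochondrial tRNA modification gene near that pair, was lower at -0.63 ± 0.06 (limma adjusted p = 0.0283), whereas the genes between it and Ooep, Ddx43 and Cgas, were at -0.28 and -0.10 and were not called. Ccpg1, a gene of endoplasmic reticulum turnover near Khdc3, was lower at -0.56 ± 0.04 (limma adjusted p = 0.0241), and the genes flanking Khdc3 directly, Rab27a and Rsl24d1, were at -0.43 and -0.41 without a call. Rcc2, beside Padi6 on chromosome 4, was lower at -0.58 ± 0.09 (limma adjusted p = 0.0473). Calls of these 4 neighbours were lost with median centring (limma adjusted p = 0.115 to 0.295) and with any line left out. Each value above is that of the gene's brightest probe, and other probes differed. The second Morc1 probe was at -0.12, the other Mto1 probes at 0.04 and -0.03, and the other Rcc2 probes at 0.16 and -0.18. With the mean of all probes of a gene, Mto1 (-0.21, limma adjusted p = 0.0672) and Rcc2 (-0.20, limma adjusted p = 0.167) lost their calls, and Morc1 (-0.62, limma adjusted p = 0.0451) and Ccpg1 (-0.50, limma adjusted p = 0.0262) kept theirs. Rcc2 also lost its call without array 1 of any 1 of the 4 lines (limma adjusted p = 0.0585 to 0.0766). The medians of the members' chromosomes ran from -0.02 to 0.0011, and chromosomes 8 and 11, whose medians were 0.13 and 0.10, hold none of the 9 genes.

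**Figure D4:**
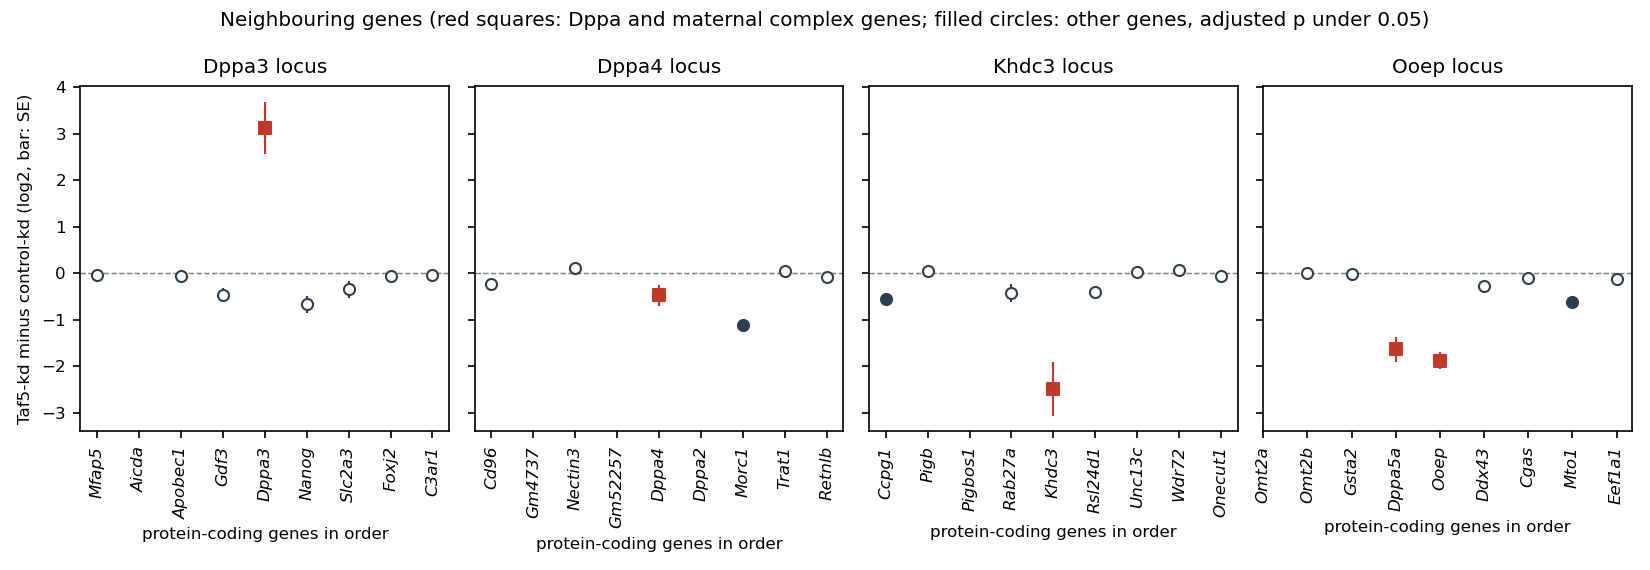
Taf5-kd minus control-kd difference (y axis, log2, with SE) of protein-coding genes in their order along the chromosome (x axis) around Dppa3, Dppa4, Khdc3 and Ooep; red squares are Dppa and maternal complex genes, filled circles other genes with an adjusted p under 0.05, and names without a point were not measured. Dppa3 stands at 3.13 among neighbours at -0.67 to -0.04, and Ooep and Dppa5a stand together at -1.88 and -1.64.

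Genes linked to the members by family or function were taken from lists. No close relative was called in limma at an adjusted p under 0.05. The lists held 2 measured KH-domain genes of the Khdc1 cluster, 5 Groucho family genes and 4 peptidylarginine deiminases. At an unadjusted p under 0.05 the counts were 0, 2 and 0, where 6712 of 25150 features passed. The Groucho genes with the smallest p were Tle1 at 0.65 ± 0.15 (limma adjusted p = 0.0915) and Tle3 at -0.21 ± 0.06 (limma adjusted p = 0.145). Of the peptidylarginine deiminases, Padi3 was at 0.14 and Padi4 at 0.08. Among 10 NLRP genes of oocyte and embryo, 1 was called, against 4.5% higher and 3.25% lower of all features. Nlrp14, a maternal-effect gene, was higher at 0.58 ± 0.08 (limma adjusted p = 0.0434), with 0.27 and 0.44 in Taf5-kd lines 1 and 2 against -0.28 and -0.16 in control-kd lines 1 and 2. Nlrp14 lost its call without Taf5-kd line 1 array 1 (limma adjusted p = 0.0643) or control-kd line 2 array 1 (limma adjusted p = 0.0546). Among 20 other maternal-effect and oocyte genes 0 were called, and the median difference was -0.04. At an unadjusted p under 0.05 in limma there were 4, against 6712 of 25150 features. The oocyte transcription factor gene Figla was at 0.36 ± 0.06 (limma adjusted p = 0.0578) and Sohlh2, another germ cell factor gene, at -0.22 ± 0.05 (limma adjusted p = 0.0807).

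Of the genes that code for FILIA's partners in DNA damage signalling and replication fork restart, 4 of 12 measured were lower and 0 higher, against 3.25% lower and 4.5% higher of all features. These were Rpa2, which codes for a single-strand DNA binding subunit (-0.55 ± 0.05, limma adjusted p = 0.0258), Trim25, for a ubiquitin ligase (-0.55 ± 0.08, limma adjusted p = 0.0451), Parp1, for the ADP-ribosylating break sensor (-0.40 ± 0.04, limma adjusted p = 0.0276), and Chek2, for a checkpoint kinase (-0.36 ± 0.05, limma adjusted p = 0.0376). Parp1 stood at 0.04 and 0.03 in Taf5-kd lines 1 and 2, against 0.44 and 0.44 in control-kd lines 1 and 2. All 4 genes were within 0.26 of the parental level in the Taf5-kd lines and at least 0.44 above it in the control-kd lines. The list median was -0.19, and the remaining 8 ran in either direction, Npm1 reaching 0.47 ± 0.13 (limma adjusted p = 0.126). With the mean of all probes of a gene the list had 3 lower and 1 higher, and Parp1 (-0.34, limma adjusted p = 0.0687) lost its call. Trim25 lost its call without Taf5-kd line 1 array 2 (limma adjusted p = 0.0600) or control-kd line 1 array 1 (limma adjusted p = 0.0563), and Chek2 without Taf5-kd line 2 array 1 (limma adjusted p = 0.110) or control-kd line 2 array 1 (limma adjusted p = 0.0634).

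Of the DNA methylation and hydroxymethylation genes linked to Dppa3, 5 of 10 measured were lower and 0 higher, against 3.25% lower and 4.5% higher of all features, with a list median of -0.32. With the mean of all probes of a gene 3 were lower, as Tet2 (-1.31, limma adjusted p = 0.0511) and Usp7 (-0.46, limma adjusted p = 0.0590) lost their calls. Tet2, a 5-methylcytosine dioxygenase gene, was lower at -1.64 ± 0.24 (limma adjusted p = 0.0426), with -1.06 and -0.42 in Taf5-kd lines 1 and 2 against 0.83 and 0.97 in control-kd lines 1 and 2. Dnmt3l, the cofactor of de novo methylation, was lower at -1.63 ± 0.13 (limma adjusted p = 0.0249), with -1.02 and -0.84 against 0.55 and 0.85 in the same order of lines. Both genes were thus below the parental level in Taf5-kd lines and above it in control-kd lines. Uhrf1, which codes for the maintenance methylation cofactor bound by DPPA3, was lower at -0.58 ± 0.05 (limma adjusted p = 0.0267), and Usp7, for a deubiquitinase, at -0.52 ± 0.06 (limma adjusted p = 0.0323). Dnmt1, the maintenance methyltransferase gene, was lower at -0.48 ± 0.06 (limma adjusted p = 0.0384). Uhrf2, the paralogue of Uhrf1, was at 0.60 ± 0.11 (limma adjusted p = 0.0585). Tet2 lost its call without Taf5-kd line 1 array 2 (limma adjusted p = 0.0531) or control-kd line 1 array 1 (limma adjusted p = 0.0530), and Usp7 without control-kd line 2 array 2 (limma adjusted p = 0.0517).

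Of 19 germline genes known to depend on promoter methylation, 2 were higher and 1 lower, against 4.5% higher and 3.25% lower of all features, with a median of -0.08. With arrays as the unit, the line as a random block and the replicate block, 2 were higher and 7 lower. That fit called 5673 of 25150 features in either direction, more than the main fit. Tdrkh, a Tudor and KH-domain gene of the piRNA pathway, was higher at 2.09 ± 0.10 (limma adjusted p = 0.0241), with 0.91 and 1.07 in Taf5-kd lines 1 and 2 against -0.995 and -1.21 in control-kd lines 1 and 2. Tdrd1, another Tudor gene, was higher at 0.54 ± 0.08 (limma adjusted p = 0.0469). Dazl, which codes for a germ cell RNA-binding protein, was lower at -1.33 ± 0.11 (limma adjusted p = 0.0256). The other Tdrkh probes were at -0.07 and 0.06, the second Tdrd1 probe at 0.12 and the second Dazl probe at -0.33. The mean of all probes gave 0.69 for Tdrkh, 0.33 for Tdrd1 and -0.83 for Dazl, with the 3 calls kept (limma adjusted p = 0.0263 to 0.0340). Tdrd1 lost its call without Taf5-kd line 1 array 2, Taf5-kd line 2 array 1 or array 2 of either control-kd line (limma adjusted p = 0.0513 to 0.0586). Of 24 listed 2-cell-stage genes linked to Dppa2 and Dppa4, 10 were measured, and 0 were called. At an unadjusted p under 0.05 in limma there were also 0, where 6712 of 25150 features passed. The pair with the smallest p among these was Sp110 at -0.17 ± 0.07 (limma adjusted p = 0.216) and Arg2 at 0.06 ± 0.04 (limma adjusted p = 0.414), and Zscan4c was at -0.18 ± 0.20. Of 11 primordial germ cell genes 1 was called, against 4.5% higher and 3.25% lower of all features. The list median was 0.08, and its genes ran in either direction. The called gene was Alpl, the alkaline phosphatase gene of ES and germ cells, lower at -0.96 ± 0.14 (limma adjusted p = 0.0422). Alpl lost its call without Taf5-kd line 2 array 1 or array 1 of either control-kd line (limma adjusted p = 0.0513 to 0.0660). These calls rest on 2 lines per group. With median centring, calls remained for Tdrkh (limma adjusted p = 0.0276) and Dazl (0.0443), and no call was left in the FILIA, methylation, NLRP and germ cell lists. Each call in these 5 lists was lost when any 1 line was left out.

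**Figure D5:**
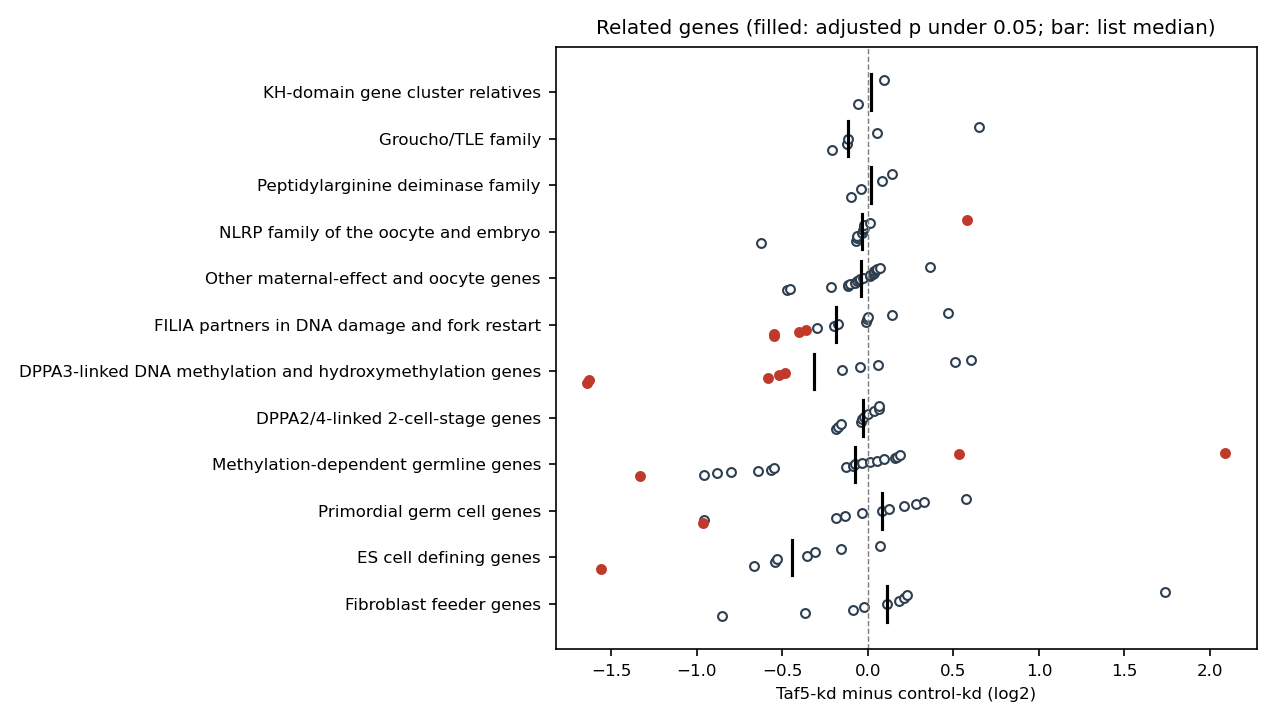
Taf5-kd minus control-kd difference (x axis, log2) of each measured gene in the 12 lists (rows); filled points have an adjusted p under 0.05 and vertical bars are list medians. The filled points of the FILIA partner and DNA methylation lists lie between -1.64 and -0.36, and those of the germline list lie on either side of 0.

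Markers of the ES cell state were taken as a further list. Of 8 defining genes 1 was called, against 4.5% higher and 3.25% lower of all features. At an unadjusted p under 0.05 in limma there were 5, where 6712 of 25150 features passed. The list median was -0.44. With arrays as the unit, the line as a random block and the replicate block, 5 were called lower. That fit called 5673 of 25150 features in either direction, more than the main fit. The gene called in the main fit was Esrrb, a naive pluripotency factor gene, lower at -1.56 ± 0.16 (limma adjusted p = 0.0292). Its second, dimmer probe was at -0.01, and the mean of both gave -0.79 with the call kept (limma adjusted p = 0.0248). Esrrb kept its call with median centring (limma adjusted p = 0.0443) and without Taf5-kd line 2 (0.0493), and lost it without any of the other 3 lines. The median log2 ratio of the list ran from -0.25 to 0.05 over Taf5-kd arrays and from 0.35 to 0.45 over control-kd arrays, and 8 of 8 genes were above background on all arrays. Of 9 fibroblast feeder genes 0 were called, 1 at an unadjusted p under 0.05, and the list median per array ran from -0.20 to 0.003 in Taf5-kd and from -0.23 to -0.10 in control-kd. The list ran in either direction, from Pdgfra at -0.85 ± 0.76 (limma adjusted p = 0.571) to the collagen gene Col1a1 at 1.74 ± 0.51 (limma adjusted p = 0.137). Col1a1 was below the parental level in 4 of 4 lines, and Twist1 was above it in 4 of 4 lines. The part of these markers in the values of Dppa3, Khdc3, Ooep and Dppa5a was not tested. In RNA of whole cultures, fewer cells expressing a gene and less RNA per cell cannot be told apart.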

How the data were processed

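Scanner tables of 8 dual-colour arrays, the authors' processed values and a table of group comparisons were used. Per the file headers, the scanner tables give the mean intensity of each spot per channel with the local background. The deposited processed values are log2 ratios of line over parental pool, and the authors' deposited comparison table gives log2 differences with a p-value, whose test is not given in the sources used here. No p-value of that table was used. The genome build behind the probes is not given in the sources used here.

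From the intensities, background was corrected by normexp (offset 50) and each array normalized by global loess over 41174 mouse probes, with 4046 control spots at weight 0 (limma 3.58.1, R 4.3.3, statmod 1.5.0; plots with Python 3.11.15, pandas 2.3.3 and matplotlib 3.10.9). Every array was turned to line over parental pool by the dyes in the labels. Probes more than 2 background SDs above background on at least 4 of 8 arrays, in either channel, were kept, 40860 in all. A gene was represented by its brightest probe. Symbols of 3726 probes were updated through RefSeq synonyms, among them the one of Khdc3.

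The dye effect, which is also the array number, was removed per feature. After line means were removed, same-numbered arrays from different lines had correlations of 0.700 to 0.829, so array numbers were treated as pairs. Groups, and the mean of all lines against the parental pool, were compared on 1 mean per line, and clones of a group on the 8 arrays with the dye as a term. All tests were two-sided and used lmFit and eBayes of limma, with p-values adjusted over 25150 features by Benjamini-Hochberg, and the fits were tested on simulated data. The authors' processed values, other normalizations and filters, and each array and line left out served as alternatives. Each SE is that of the limma fit, which draws a gene's variance toward that of all features. It rests on spread between lines of a group for group comparisons and between arrays for clone comparisons. The 2 lines per group limit the precision of group differences.

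Named were all 9 genes; of each list up to 4 called genes with the largest difference, or up to 2 with the smallest p; called neighbours; and the 3 named genes with the most similar profile for each member spanning at least 1 log2 unit. Other genes given as examples (the flanking genes of Khdc3, Dppa3 and Ooep, Dnmt1, Uhrf2, Npm1, Zscan4c, Padi3, Padi4, Col1a1, Pdgfra and Twist1) were chosen after their values were seen. The members and the lists were chosen with earlier results of these data known.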

Additional observations from a re-analysis of the deposited data

Results flagged for a closer look

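Clones that carry the same hairpin differed. Between Taf5-kd line 1 and line 2, Dppa3 differed by 0.79, Dppa4 by -0.59, Dppa5a by -0.75, Khdc3 by -0.62 and Ooep by -0.49 on the log2 scale, each at an adjusted p under 0.05 in limma. Between control-kd line 1 and line 2, Dppa3 differed by 1.34 and Khdc3 by 1.48. The sign for Khdc3 was opposite in the 2 pairs of clones, and whether the pairs differ from each other was not tested.

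Of 16 sets of 4 arrays, 2 had an array far from the other 3. Chance alone gives about 1 in 20 where the 4 arrays are independent. Each set here is 2 arrays of each of 2 clones, so that rate need not hold. Padi6 was at 0.0638 on array 2 of Taf5-kd line 2, above the other Taf5-kd arrays at -0.08 to -0.06. Nlrp5 was at -0.11 on array 1 of control-kd line 1, above the other control-kd arrays at -0.15 to -0.14. Each gap is small against the range of Dppa3 or Khdc3.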

How the results depend on the processing

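No value of the 8 genes that passed a test reversed, and of 520 recomputed values of single genes 495 kept their side of the threshold or, where not tested, moved by less than the spread. Some of the 520 could not change. Each of the 8 genes had 1 probe, so averaging probes or dropping the filter left its value as it was. For Taf5-kd against control-kd, so did the fits without the replicate block and with the line as a random block. With median centring in place of loess, the features called fell to 106 for Taf5-kd against control-kd, 94 between Taf5-kd clones, 322 between control-kd clones and 1724 for all lines against the parental pool, and between Taf5-kd clones Dppa3 (0.83) and Khdc3 (-0.59) lost their calls; the cause was not tested. Leaving out 1 array or line gave 0 to 2520 features for Taf5-kd against control-kd (limma; 4974 at an unadjusted p under 0.05 without Taf5-kd line 1, where 0 were called), 3139 to 6944 for all lines against the parental pool, 1291 to 3997 between Taf5-kd clones and 1443 to 3263 between control-kd clones, and Dppa3 against the parental pool ran from -2.20 to -1.53. A line left out leaves 3 lines for the fit. With arrays as the unit, the line as a random block and the replicate block, 5673 features were called for Taf5-kd against control-kd. Without the replicate block, the counts were 923 between Taf5-kd clones, where Dppa5a (adjusted p = 0.855) and Ooep (0.246) lost their calls, and 936 between control-kd clones; no other call of the 8 genes changed. Tle6 between Taf5-kd clones was called with no background subtraction (-0.19, adjusted p = 0.0376) and with the authors' processed values (-0.20, 0.0371).

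Signal limits 2 genes: Nlrp5 lay at 92 to 158 units, and Dppa5a came close to the scanner limit.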
